A study of Homo sapiens with 6 samples.

Results

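The transcription factors that drive the epithelial-mesenchymal transition (EMT) were examined in HS578T cells carrying an EP300 expression vector. The group holds 10 genes, SNAI1, SNAI2, ZEB1, ZEB2, TWIST1, TWIST2, TCF3, TCF4, PRRX1 and FOXC2, found by their gene symbol in the array's annotation. The list was drawn up with earlier results of these data known. Each was represented by 1 probe set (a set of probes summarised into 1 value), which makes 10 of the 21448 probe sets and 10 of the 17687 named genes measured.

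HS578T cells come from a human breast carcinoma and look mesenchymal in culture. The EP300 group consisted of 3 cultures of cells stably transfected with pcDNA 3 carrying the cDNA of EP300, a lysine acetyltransferase and transcriptional co-activator. The control group consisted of 3 cultures of cells transfected with pcDNA 3 alone. All cultures of both groups were selected and grown with G418, in low-glucose DMEM with fetal calf serum, glutamine and insulin, as pools of at least 200 clones, and each culture was hybridised to its own Affymetrix array. The text on the design calls the cultures independent and does not say whether those of 1 group came from 1 transfected pool, so the p-values measure the spread between these cultures. The vector's own product was not analysed here, since 0 named probe sets carry the symbol EP300, and the labels were therefore not checked against the level of the transfected gene.

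EMT is the programme by which epithelial cells lose junctions and polarity and take on a motile, mesenchymal state. SNAI, ZEB and TWIST factors bind short DNA elements called E-boxes, and SNAI and ZEB proteins recruit co-repressors there to silence epithelial genes such as CDH1, the gene of E-cadherin. TCF3 and TCF4 encode the E proteins E2A and E2-2, which pair with TWIST proteins, and are not the Wnt effectors sometimes given similar names. PRRX1, a homeobox factor, and FOXC2, a forkhead factor, are mesenchymal regulators that act beside them. EP300 is known as a co-activator and as an enzyme that acetylates several transcription factors.

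Markers of cell types were read as a check of the label, and brightness of different probe sets does not rank genes by abundance. All 8 measured mesenchymal markers lay above the median probe set, between the 96.5th and the 99.9th percentile of the 6-array means. Their summed log2 level ran from 119.9 to 121.5 on EP300 arrays and from 122.1 to 123.0 on control arrays, without overlap. Among single probe sets of the whole table, 12.2% had groups without overlap. The markers did not all fall: THY1 (-0.75) and COL1A2 (-0.49) fell most, and AXL was higher on every EP300 array (0.40). VIM had 1 constant value and SPARC lay at or near the ceiling of the table, and whether the lower sum has a part in the results on the factors was not tested. Of 9 epithelial markers, 2 (the keratin genes KRT18 and KRT8) lay above the median probe set, and the summed log2 level ran from 40.5 to 41.6 on EP300 arrays and from 40.2 to 42.1 on control arrays. The 4 measured leukocyte markers and the 5 endothelial markers had median percentiles of 33.9 and 7.96, with 1 of each list above the median. The 6 arrays had medians from 4.456 to 4.497 on the log2 scale. In these bulk samples, fewer cells of a type and less RNA per cell cannot be told apart.

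The E-box that SNAI and ZEB proteins prefer reads CAGGTG on one strand and CACCTG on the other, and both spellings were searched in RefSeq promoters of build GRCh38.p14, from 250 bases before to 50 bases after each gene's start. At least 1 start had it in 6571 of 27305 genes (24.1%). Among the members, 6 genes had promoter entries and 1 of them, ZEB1, had the element. SNAI1, SNAI2, TWIST1 and FOXC2 had no entry and were not searched, nor were the epithelial genes CDH1 and KRT18. Among epithelial genes repressed by the factors, 11 of 16 genes with entries had it (68.8%), against 3 of 14 mesenchymal genes (21.4%). The epithelial list was drawn up as genes that these factors repress, so its higher share may follow from that choice and is no separate evidence. The stretches below are shown because they carry the elements through which the factors are described to act, for ZEB1 and for the 4 epithelial genes with an unadjusted limma p below 0.05 that had an entry. Capitals mark the E-box, and all stretches are written 5′ to 3′ on the gene's strand and end before the annotated start.
ZEB1, chr10:31318348-31318377, plus strand: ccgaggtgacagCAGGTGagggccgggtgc
MUC1, chr1:155192973-155193009, minus strand: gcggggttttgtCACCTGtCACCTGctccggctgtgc
JUP, chr17:41786002-41786042, minus strand: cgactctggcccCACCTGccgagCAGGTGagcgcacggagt
DSP, chr6:7541481-7541603, plus strand: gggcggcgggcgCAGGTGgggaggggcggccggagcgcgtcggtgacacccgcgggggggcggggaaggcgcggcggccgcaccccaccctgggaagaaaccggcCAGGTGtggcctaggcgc
DSG2, chr18:31497933-31498078, plus strand: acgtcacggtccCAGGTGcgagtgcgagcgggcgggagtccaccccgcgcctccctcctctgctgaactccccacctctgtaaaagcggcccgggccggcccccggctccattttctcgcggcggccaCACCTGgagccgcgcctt
ZEB1 had 1 element in this stretch and 3 around a second annotated start that is not printed, and MUC1, JUP, DSP and DSG2 had 2 each. A match of letters is a description of the sequence and does not show that a factor was bound there in these cells.

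SNAI2 was the member with the largest difference between the groups, and none of the 10 members passed the test. SNAI2 encodes the zinc finger repressor SLUG. It read 17.01, 17.28 and 17.44 on the EP300 arrays, against 16.80, 16.30 and 16.50 on the control arrays (deposited log2 values). The groups did not overlap, and the lowest EP300 culture lay above the highest control culture. The means were 17.25 ± 0.22 in EP300 cultures and 16.54 ± 0.25 in control cultures (SD, n = 3 each), a difference of 0.71 ± 0.23 (SE) on the log2 scale, or 1.64-fold. The 95% interval of this log2 difference ran from 0.196 to 1.225, and limma gave an unadjusted p of 0.0119 and an adjusted p of 0.738. An exact permutation test (two-sided) gave p = 0.1, and no smaller p is possible with 3 arrays against 3. All SNAI2 values lay below the ceiling of the table at 19.93 and differed from array to array. Other probe sets had repeated values below that ceiling. VIM read 18.5974 on every array, and HIF1A read 16.4157 on several arrays of both groups. Staying below 19.93 therefore cannot show that the SNAI2 probe set had no lower limit of its own, which was not tested.

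Over the whole table limma called 0 of 21448 probe sets (0.0%) at an adjusted p of 0.05. An unadjusted p below 0.05 was found for 1399 probe sets (6.52%), and for 1 of the 10 members, SNAI2. At that p, 3.45% of the table lay higher in EP300 cultures and 3.07% lay lower. The groups did not overlap for 12.2% of all probe sets (6.3% with EP300 above, 5.91% with EP300 below) and for the same 1 member. With 1 of 10, the members' share was near these background shares. The median difference was 0.014 on the log2 scale over the 10 members and 0.001 over all probe sets. The median absolute difference was 0.10 over the members and 0.20 over all probe sets, and 5 members were higher and 5 lower in EP300 cultures, where 50.2% of all probe sets were higher.

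**Figure D1:**
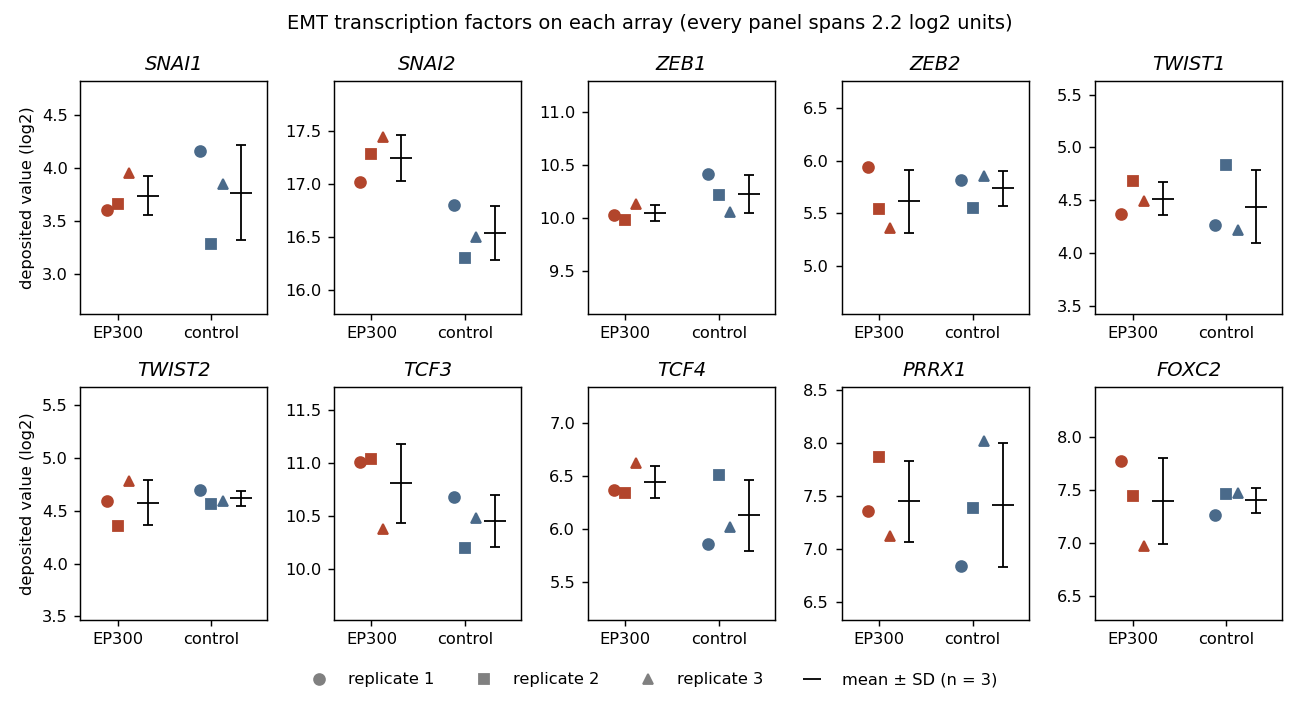
Deposited log2 value of each of the 10 EMT transcription factors (1 panel each, all panels with the same span) on the 3 EP300 arrays (left, red) and the 3 control arrays (right, blue), with the mean ± SD of each group (n = 3) in black. The groups are separate for SNAI2, with EP300 values from 17.01 to 17.44 and control values from 16.30 to 16.80, and overlap for the other 9 genes.

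SNAI1, which encodes SNAIL, the closest relative of SLUG among the members, read 3.61, 3.66 and 3.95 on the EP300 arrays, against 4.17, 3.28 and 3.85 on the control arrays. The EP300 values lay inside the range of the control values. The difference was -0.03 ± 0.26 (SE), with a 95% interval from -0.62 to 0.57 (limma adjusted p = 0.991.) Its 6-array mean stood at the 33.7th percentile of the probe sets, and it was the 1 member below the median probe set. The table holds no detection calls, so whether SNAI1 lay above background is unknown.

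The ZEB genes, zinc finger and homeobox repressors, both had slightly lower means in EP300 cultures, with overlapping groups. ZEB1 read 10.03, 9.98 and 10.13 on the EP300 arrays, against 10.41, 10.22 and 10.06 on the control arrays. The groups overlapped only through control replicate 3, which lay between the EP300 values. The difference was -0.18 ± 0.21 (SE), with a 95% interval from -0.65 to 0.28 (limma adjusted p = 0.911.) ZEB1 also had the smallest spread between cultures of any member, with a within-group SD of 0.14, at percentile 6.97 of all probe sets. ZEB2 read 5.94, 5.54 and 5.36 on the EP300 arrays, against 5.82, 5.55 and 5.85 on the control arrays, so that EP300 replicate 1 was the highest and EP300 replicate 3 the lowest array. Its difference was -0.13 ± 0.23 (SE), with an interval from -0.64 to 0.39.

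The TWIST genes encode basic helix-loop-helix factors. TWIST1 read 4.37, 4.69 and 4.49 on the EP300 arrays, against 4.27, 4.83 and 4.22 on the control arrays. Control replicate 2 was the highest array and the other control arrays the lowest. TWIST2 read 4.59, 4.36 and 4.78 on the EP300 arrays, against 4.70, 4.56 and 4.59 on the control arrays, with the control values inside the EP300 range. The differences were 0.08 ± 0.24 (SE) for TWIST1 and -0.04 ± 0.21 for TWIST2 on the log2 scale, and their 95% intervals ran from -0.46 to 0.61 and from -0.51 to 0.43. Both probe sets stood near the middle of the table, at the 50.9th and 52.8th percentile, where the background is also unknown.

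The E protein genes TCF3 and TCF4, whose products pair with TWIST proteins and bind E-boxes, had the next largest differences after SNAI2, and neither passed. TCF3 read 11.00, 11.04 and 10.38 on the EP300 arrays, against 10.68, 10.19 and 10.48 on the control arrays. EP300 replicates 1 and 2 lay above every control array, and EP300 replicate 3 lay inside the control range. The difference was 0.36 ± 0.25 (SE), with a 95% interval from -0.21 to 0.93 (limma adjusted p = 0.858.) TCF4 read 6.37, 6.34 and 6.62 on the EP300 arrays, against 5.86, 6.51 and 6.01 on the control arrays. Here control replicate 2 lay inside the EP300 range, and the other control arrays were below it. The TCF4 difference was 0.32 ± 0.24 (SE), with an interval from -0.22 to 0.85 (limma adjusted p = 0.873.) Control replicate 2 thus had the highest control value of TWIST1 and TCF4, and the lowest of SNAI1, SNAI2, ZEB2, TWIST2 and TCF3.

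PRRX1 and FOXC2 had nearly equal means in both groups. PRRX1 read 7.35, 7.87 and 7.12 on the EP300 arrays, against 6.84, 7.39 and 8.02 on the control arrays. The control arrays spanned more than the EP300 arrays and held both the highest and the lowest value. PRRX1 had the largest within-group SD of the members, 0.50, at the 86.6th percentile of all probe sets. FOXC2 read 7.77, 7.44 and 6.97 on the EP300 arrays, against 7.27, 7.46 and 7.47 on the control arrays, and here the EP300 arrays held the extremes. The differences were 0.03 ± 0.32 (SE) for PRRX1 and -0.0049 ± 0.25 for FOXC2, with 95% intervals from -0.69 to 0.76 and from -0.56 to 0.55.

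For the 9 members other than SNAI2 the limma adjusted p lay between 0.858 and 0.997. Their 95% intervals reached down to -0.69 (PRRX1) and up to 0.93 (TCF3) on the log2 scale. A p that misses the threshold does not show equal levels.

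**Figure D2:**
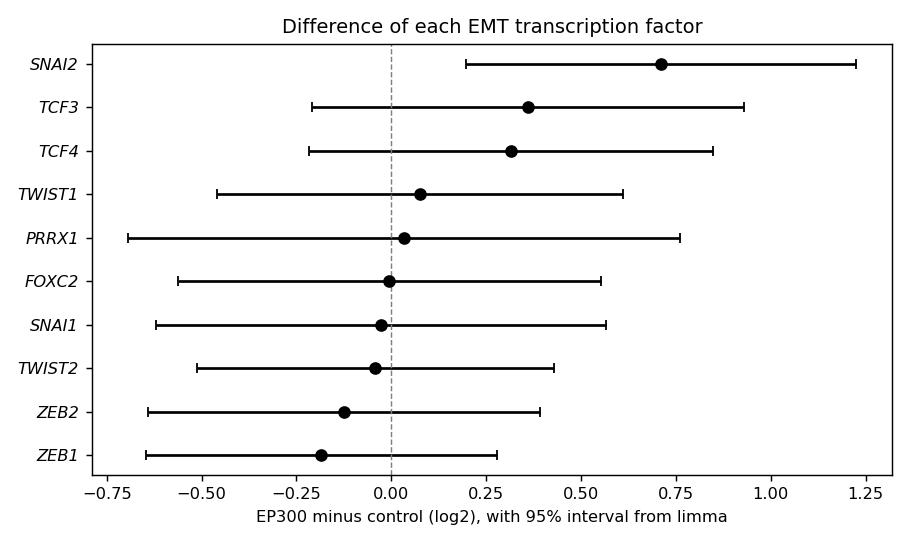
EP300 minus control difference of each EMT transcription factor (log2), with limma's 95% interval, ordered by size from SNAI2 at the top (0.71) to ZEB1 at the bottom (-0.18). The interval of SNAI2 lies above 0, from 0.196 to 1.225, and those of the other 9 genes include 0.

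By the root mean square distance between values centred on each gene's own mean over the 6 arrays, the profiles most like that of SNAI2 among 9261 named probe sets above the median level were those of HDDC3, TANK, KIAA0930, TNKS2 and SNRNP35. The distances ran from 0.10 to 0.11 on the log2 scale. TANK, which encodes an adaptor of TRAF signalling, read 6.72, 6.69 and 6.87 on the EP300 arrays, against 6.28, 5.83 and 6.12 on the control arrays. As with SNAI2, control replicate 2 was the lowest array and EP300 replicate 3 the highest. These genes were picked for their likeness to SNAI2 across only 6 arrays, and their differences of 0.52 to 0.68 give no separate evidence.

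Family relatives of the members did not pass either. Of 11 relatives, 10 were measured, 5 higher and 5 lower in EP300 cultures. Their median log2 difference was -0.015, and limma called 0 (0 at an unadjusted p below 0.05). The groups did not overlap for 2 higher and 1 lower, or 30% of the 10, against 12.2% of all probe sets. For this list and those below, 6.52% of all probe sets had an unadjusted limma p below 0.05. The 3 with the smallest p were PRRX2, a homeobox gene related to PRRX1, at -0.39 ± 0.21 (SE), HAND1, a basic helix-loop-helix gene, at 0.31 ± 0.21, and TCF15, another of that class, at 0.29 ± 0.25. PRRX2, HAND1 and TCF15 stood at percentiles 15.8, 6.06 and 39.7. Only 1 of the 10 measured relatives lay above the median probe set, so for most of this list signal over background is unknown. Among 19 other transcription factors linked to EMT, 8 were higher and 11 lower (median -0.020), 0 were called, and 1 had an unadjusted limma p below 0.05. This was LEF1, a DNA-binding partner of beta-catenin, which read 7.63, 7.21 and 7.16 on the EP300 arrays, against 6.54, 6.99 and 6.13 on the control arrays. The EP300 arrays all lay above the control arrays, and the difference was 0.78 ± 0.27 (SE), with a limma adjusted p of 0.741. SMAD3, a transducer of TGF-beta signals, differed by -0.35 ± 0.23, and GSC, a homeobox gene, by 0.38 ± 0.26, with a probe set at percentile 0.62 of brightness.

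ID proteins bind E proteins such as those of TCF3 and TCF4 and keep them from DNA. All 4 ID genes were measured, 3 higher and 1 lower in EP300 cultures. Their median log2 difference was 0.24, and limma called 0, with 1 at an unadjusted p below 0.05. ID2 read 10.98, 10.32 and 10.92 on the EP300 arrays, against 9.57, 10.11 and 10.29 on the control arrays. The groups did not overlap, although EP300 replicate 2 and control replicate 3 lay close together. The ID2 difference was 0.75 ± 0.28 (SE), with a 95% interval from 0.14 to 1.37, an unadjusted p of 0.0213 and a limma adjusted p of 0.746. ID1 differed by 0.32 ± 0.24, ID4 by -0.27 ± 0.24 and ID3 by 0.15, and their groups overlapped.

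Epithelial factors that oppose EMT had a median difference of 0.056 over 13 genes, with 7 higher and 6 lower. Limma called 0, and 1 was lower at an unadjusted p below 0.05. KLF4, a zinc finger factor of epithelial differentiation, read 4.79, 5.15 and 4.24 on the EP300 arrays, against 5.91, 5.51 and 5.56 on the control arrays, so that every EP300 array lay below every control array. Its difference was -0.93 ± 0.27 (SE), with a limma adjusted p of 0.735. GRHL3, a grainyhead factor, differed by 0.46 ± 0.23 and FOXA1, a luminal forkhead factor, by -0.38 ± 0.21. Only 2 of the 13 genes lay above the median probe set, so most of this list was measured at a brightness where the background is unknown.

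The epithelial genes that these factors repress lay on both sides of 0. Of 25 genes, 14 were higher and 11 lower in EP300 cultures. Their median log2 difference was 0.061, and limma called 0. At an unadjusted p below 0.05 there were 2 higher and 3 lower, where 3.45% of all probe sets were higher and 3.07% lower. The lower ones were KRT18, a keratin of simple epithelia, at -1.11 ± 0.23 (SE), MUC1, a membrane mucin, at -0.93 ± 0.22, and DSP, encoding the desmosomal protein desmoplakin, at -0.77 ± 0.33. The higher ones were DSG2, the desmosomal cadherin desmoglein, at 0.76 ± 0.24, and JUP, encoding plakoglobin of desmosomes and adherens junctions, at 0.86 ± 0.30. JUP and DSP were named after their values were seen.

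Of the 4 genes whose E-boxes are printed above, MUC1 read 4.74, 4.64 and 4.34 on the EP300 arrays, against 5.28, 5.67 and 5.58 on the control arrays. DSG2 read 7.26, 7.12 and 7.58 on the EP300 arrays, against 6.86, 6.32 and 6.50 on the control arrays. Thus 2 genes with the element were higher (DSG2, JUP) and 2 were lower (MUC1, DSP) in the same cells. These 4 were picked by their p from the 11 epithelial genes with the element. The groups of DSP overlapped, and the JUP probe set stood at percentile 42.2, where the background is unknown. CDH1, the textbook target and named for that reason, read 4.02, 2.81 and 2.92 on the EP300 arrays, against 3.04, 2.51 and 2.08 on the control arrays. The groups overlapped, the difference was 0.71 ± 0.36 (SE) with a 95% interval that included 0 (lower bound -0.098), and the probe set stood at percentile 5.21 of brightness.

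Mesenchymal genes that EMT raises also lay on both sides of 0. Of 22 measured genes, 13 were lower, 8 higher and 1 (VIM, the gene of vimentin, at 18.60 on all 6 arrays) gave no direction. The median log2 difference was -0.15, and limma called 0, with 6 lower and 1 higher at an unadjusted p below 0.05. Of all probe sets, 3.07% were lower and 3.45% higher at that p. The groups did not overlap for 8 genes that were lower and 3 that were higher, which makes 11 of 22 genes, against 12.2% of all probe sets. Of these 22 genes, 20 lay above the median probe set, and the share among equally bright probe sets was not examined. TAGLN, encoding the actin-binding protein transgelin, differed by -1.18 ± 0.22 (SE) and ACTA2, smooth muscle actin, by -0.80 ± 0.20. The limma adjusted p of TAGLN was 0.476, and with a variance trend and robust estimation it was 0.034, which passes the threshold. MMP2, a gelatinase, was the 1 gene that was higher at an unadjusted limma p below 0.05. It stood at 10.79 ± 0.21 in EP300 cultures and 9.95 ± 0.31 in control cultures (SD, n = 3 each). The MMP2 difference was 0.84 ± 0.24 (SE), with a limma adjusted p of 0.735. AXL (0.40) and PDGFRB (0.32) were the other genes with every EP300 array above every control array. SNAI2 and MMP2 thus had higher means, and TAGLN and ACTA2 lower means, in the same EP300 cultures.

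**Figure D3:**
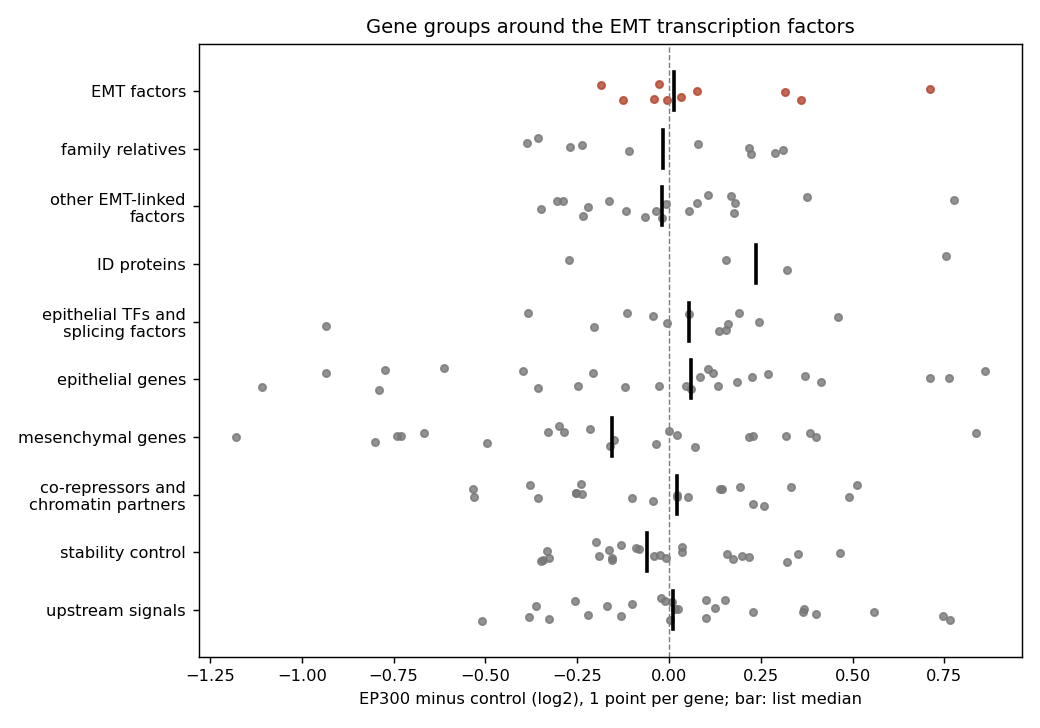
EP300 minus control difference (log2) of each measured gene in the EMT transcription factors (top row, red) and in 9 related gene groups (grey), with the median of each group as a black bar. The factors lie between -0.18 and 0.36 apart from SNAI2 at 0.71, and the mesenchymal genes spread from -1.18 to 0.84 around a median of -0.15.

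SNAI and ZEB proteins silence genes with CtBP, SIN3A, histone deacetylases and other chromatin enzymes. Of 25 such partner genes 21 were measured, 11 higher and 10 lower in EP300 cultures. Their median log2 difference was 0.021, and limma called 0, with 2 lower at an unadjusted p below 0.05. SIN3A, a scaffold of deacetylase complexes that SNAIL recruits, read 5.76, 5.76 and 5.46 on the EP300 arrays, against 6.09, 6.08 and 6.41 on the control arrays. Its difference was -0.53 ± 0.22 (SE), and that of the deacetylase gene HDAC3 was -0.53 ± 0.23, with limma adjusted p of 0.748 and 0.765. In both the EP300 arrays lay below the control arrays. HDAC2, another deacetylase gene, differed by 0.51 ± 0.26 with overlapping groups.

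SNAIL is a short-lived protein that GSK3B phosphorylates and ubiquitin ligases then mark for degradation. Of 24 measured genes in this control of stability, 9 were higher and 15 lower (median -0.061), and limma called 0, with 0 at an unadjusted p below 0.05. COPS2, a COP9 signalosome subunit linked to SNAIL stability, differed by 0.46 ± 0.21 (SE), GSK3B by 0.32 ± 0.21 and CTDSP1, a small phosphatase of SNAIL, by -0.33 ± 0.22. For COPS2 and GSK3B the groups did not overlap. Protein levels of the factors were not measured on these arrays.

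Signals upstream of the factors had a median log2 difference of 0.012 over 26 genes, with 15 higher and 11 lower and 0 called by limma. BMP4, a bone morphogenetic protein, was the 1 gene with an unadjusted p below 0.05, at 0.75 ± 0.33 (SE), and its groups overlapped. TGFBR2, a receptor for TGF-beta, differed by 0.56 ± 0.28 and SMAD4, the shared SMAD partner, by -0.51 ± 0.26, again with overlapping groups.

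The SNAI2 difference kept its direction under every setting tried and was not called in any of them. Since its groups did not overlap, leaving out 1 array could not reverse that direction. Filtering, 1 probe set per gene, a variance trend and a replicate block could not change the difference itself, which stayed at 0.71. Over 12 alternatives it ran from 0.59, without control replicate 2, to 0.84, without control replicate 1. The limma adjusted p ran from 0.264, with a variance trend and robust estimation, to 0.866, without control replicate 2. The unadjusted p was at most 0.0482.

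**Figure D4:**
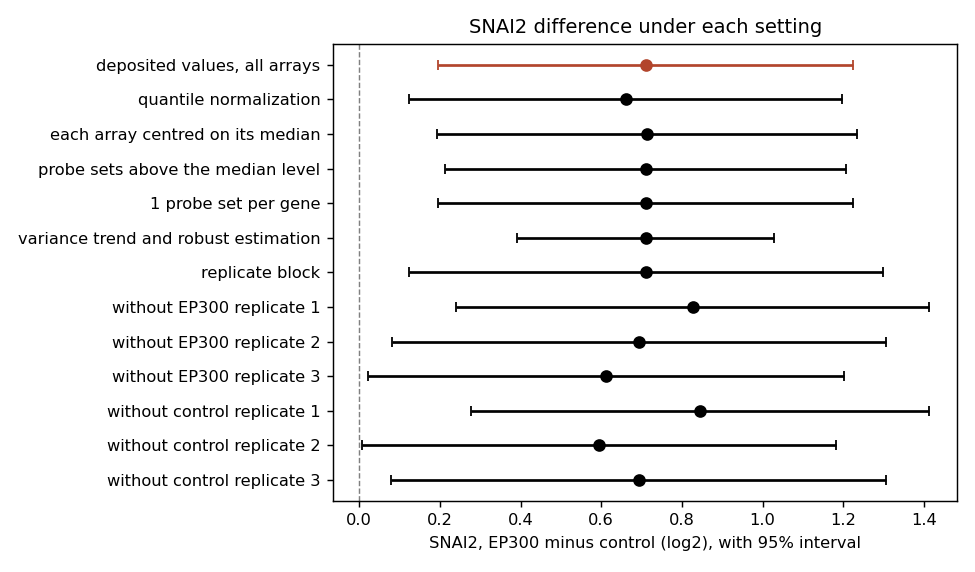
SNAI2 difference, EP300 minus control (log2), with its 95% interval, for the deposited values (top, red) and under 12 alternative settings (black). All points lie between 0.59 and 0.84 and all intervals lie above 0, while no adjusted p was below 0.264.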

How the data were processed

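Total RNA was labelled with the GeneChip WT PLUS reagents, per the labels' protocols. The authors deposited 1 log2 value per probe set and array, and the log2 scale was inferred from the values. Partek 6.6 was used, per the submitters' processing notes. The sources used here do not state how background was corrected, arrays were normalized or probes were summarised, nor the build. The platform annotation gave 1 symbol for 17709 of 21448 probe sets, several for 0 and none for 3739.

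EP300 minus control was fitted on all probe sets with lmFit and eBayes of limma 3.58.1 (R 4.3.3), with no filter or covariate, and Benjamini-Hochberg adjustment over all probe sets at a threshold of 0.05. The fit was tested on simulated data. Gene lists were described by counts and medians. Probe sets with an SD over the 6 arrays under 0.001 were given no direction. The number of arrays limits the precision.

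The members and lists were chosen with earlier results of these data known. Named genes are all members, the 3 genes with the smallest p (and any called) of each of 9 other lists, and the 5 profiles most like the member with the smallest p. CDH1, ID3, JUP, DSP, KRT8, SPARC, VIM, HIF1A, AXL, THY1, COL1A2 and PDGFRB fall outside this rule. Promoter sequences are RefSeq's, build GRCh38.p14. Alternatives were other normalization, centring, filtering, 1 probe set per gene, a variance trend, a replicate block and leaving out each array.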

Additional observations from a re-analysis of the deposited data

How the results depend on the processing

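The count of members called stayed at 0 under all 12 alternatives, and the median member difference ran from -0.0069 to 0.14 when 1 array was left out. Over the whole table the count of called probe sets was 4 with a variance trend and robust estimation, none of them a member but 1 of them the mesenchymal gene TAGLN (-1.18, limma adjusted p = 0.034), and 0 otherwise. The direction of SNAI2, TCF3, TCF4, ZEB1 and ZEB2 held throughout, although ZEB2 came to -0.00018 in 1 setting. Filtering, 1 probe set per gene, a variance trend and a replicate block could not change the difference of any member they kept. For SNAI2, whose groups did not overlap, leaving out 1 array could not change the direction either. PRRX1 turned to -0.0038 with quantile normalization. When 1 array was left out, the differences ran from -0.25 to 0.33 for PRRX1, from -0.19 to 0.21 for FOXC2, from -0.27 to 0.17 for SNAI1, from -0.033 to 0.27 for TWIST1 and from -0.14 to 0.067 for TWIST2, so their direction depended on single arrays. TCF3 ran from 0.23 to 0.57 and TCF4 from 0.18 to 0.51. Among probe sets above the median level the median of the epithelial factors was -0.39, because 2 genes were left, and SNAI1 had no value there. When 1 array was left out, list medians near 0 changed sign: the co-repressors ran from -0.11 to 0.081, the epithelial genes from -0.032 to 0.071, the epithelial factors from -0.073 to 0.13, the relatives from -0.098 to 0.11, the other EMT-linked factors from -0.10 to 0.029, the stability genes from -0.18 to 0.028 and the upstream signals from -0.028 to 0.074. The mesenchymal genes (-0.19 to -0.090) and the ID genes (0.18 to 0.32) kept theirs. With the replicate number as a block, SNAI2 differed by 0.71 with a limma adjusted p of 0.806 and 0 probe sets were called. Same-numbered arrays did not deviate together (correlations of deviations from the group means of -0.0015, -0.0053 and -0.0089). These values gave no sign of pairing, but they cannot show whether same-numbered cultures were handled together. Without detection calls, the members at low brightness (SNAI1, TWIST1, TWIST2) cannot be told from background.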
